A study of Mus musculus with 6 samples.

Results

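The 240 genes described here encode substrate adaptors and scaffolds of ubiquitin ligases, ligases that act on their own, and deubiquitinases. They were chosen by symbol alone from the 21900 protein-coding RefSeq genes of the mouse mm10 assembly, and they fall into 78 F-box genes (*Fbxl*, *Fbxo*, *Fbxw*), 57 *Trim* genes, 49 ubiquitin-specific proteases (*Usp*), 37 *Klhl* genes, 11 HECT ligases (*Nedd4*, *Nedd4l*, *Herc*, *Ube3* and *Huwe1*) and 8 cullins. The symbol rule uses no measured value.

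Ubiquitin is joined to a target protein by a chain of enzymes, of which the ligase picks the target. Cullins are scaffolds that hold such a ligase together: CUL1 carries F-box proteins and CUL3 carries BTB proteins such as the KLHL family, each of which binds its own set of substrates. Most TRIM proteins carry a RING domain and recruit the ubiquitin-charged enzyme themselves. HECT ligases first take ubiquitin onto their own cysteine, and USP enzymes remove ubiquitin again. In neurons these genes set the turnover of synaptic, cytoskeletal and signalling proteins, and mutations of several of them cause neurodevelopmental disorders.

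Where AGO2, the protein that carries microRNAs (miRNAs) to mRNAs, sat on these transcripts was measured by chimeric eCLIP. In this assay, RNA crosslinked to AGO2 is immunoprecipitated (IP) and sequenced beside an input sample, and a ligation step joins some miRNAs to the mRNA they were bound to, so that a fused read names both. The libraries came from whole brain of C57Bl/6J pups at postnatal day 0: 1 WT library and 2 *Mov10* Deletion libraries, named replicate 1 and replicate 2, each with its input. MOV10 is an RNA helicase that associates with AGO2, and the question was whether AGO2 occupies its mRNAs differently without it.

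The *Mov10* Deletion mouse was bred from a conditional knockout, in which *Emx1*-Cre removes floxed *Mov10* exons, and a mouse heterozygous for a mutant *Mov10* allele. *Emx1*-Cre acts in excitatory neurons of neocortex and hippocampus, whereas the libraries were made from whole brain, so cells in which Cre is not active were included. The study describes the *Mov10* Deletion libraries as made from separate brains. On *Mov10* itself AGO2 clusters numbered 11 in WT, of which 1 was enriched, and 9 in each *Mov10* Deletion library, none enriched, counted over the whole gene and all cells of the brain. All 7 brain marker genes examined, among them *Tubb3*, *Map2* and *Dcx*, held AGO2 clusters in every library, with 1155 to 1829 clusters in all. Of 8 genes of other tissues, 4 held a cluster in WT and 5 in each *Mov10* Deletion library, with 8 to 18 clusters in all: the liver gene *Alb* held 1 to 3, the endothelial gene *Cdh5* 4 to 11, of which 2 were enriched in replicate 1, and the immune gene *Ptprc* 2 in each *Mov10* Deletion library, while *Apoa1*, *Myh6* and *Ckm* held none. The red cell genes *Hba-a1* and *Hbb-bs* held enriched clusters as well, *Hbb-bs* in all 3 libraries. With a single WT library, no difference between WT and *Mov10* Deletion has a replicate check, and no test between genotypes was made.

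The miRNAs most often joined to these transcripts are given first, since the results are ordered by them. Of the 8 most frequent, miR-124-3p and miR-466i-5p are named only, and the mature sequences of the others follow from RefSeq (GRCm38.p6, the mm10 assembly), written from the 5′ end with the seed, bases 2 to 8, in capitals. The seed pairs with the target, so miRNAs with the same seed can pair with the same sites. miR-124-3p is abundant in neurons and miR-9-5p in neurons and neural progenitors. The let-7 miRNAs are known for their rise as tissues mature.
miR-9-5p: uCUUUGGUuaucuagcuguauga
miR-125b-5p: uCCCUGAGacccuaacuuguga
let-7c-5p: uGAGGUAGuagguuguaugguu
let-7b-5p: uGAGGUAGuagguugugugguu
let-7f-5p: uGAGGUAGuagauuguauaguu
miR-98-5p: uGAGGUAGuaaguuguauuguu
miR-26a-5p: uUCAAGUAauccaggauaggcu
miR-181a-5p: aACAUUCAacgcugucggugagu
miR-16-5p: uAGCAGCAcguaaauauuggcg
miR-15a-5p: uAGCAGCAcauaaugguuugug
miR-17-5p: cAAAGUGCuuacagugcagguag
miR-30c-5p: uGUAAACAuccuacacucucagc
miR-30e-5p: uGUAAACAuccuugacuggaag

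The let-7 lines and miR-98-5p share the seed GAGGUAG, miR-16-5p and miR-15a-5p share AGCAGCA, and miR-30c-5p and miR-30e-5p share GUAAACA. miR-17-5p and the miR-30 miRNAs are shown because they were found on *Fbxo10* and *Nedd4* in every library.

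An AGO2 cluster is a stretch of the genome where IP reads piled up, and it was called enriched here when its deposited log2 of IP over input was at least 3 and its deposited −log10 p was at least 3. Of the members with a cluster, 41 of 185 (22.2%, exact 95% interval 16.4 to 28.8) had an enriched cluster in WT, against 20.5% when every protein-coding gene that held a cluster was counted. In *Mov10* Deletion replicate 1 it was 102 of 190 (53.7%, 46.3 to 60.9), against 45.4% of all genes. In replicate 2 it was 81 of 190 (42.6%, 35.5 to 50), against 35.7%. The members lay above all genes in each library, and in replicate 1 the share over all genes lay below the members' interval. In the other libraries it lay inside. Members and all genes alike had their lowest share in WT, and the intervals cover counting error only. Both *Mov10* Deletion libraries lay above WT, but they also differed from each other.

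The reads behind an enriched cluster differed between the libraries. Reads could be inferred from the deposited values of nearly all enriched clusters, and over the whole genome the median was 37 IP reads in WT, against 14 and 11 in *Mov10* Deletion replicates 1 and 2. With 1 input read, the fewest IP reads of an enriched cluster were 16 in WT, 9 in replicate 1 and 8 in replicate 2. When 16 IP reads were asked of every library, a limit chosen after these values were seen, the member count stayed at 41 in WT and became 61 in replicate 1 and 26 in replicate 2, so that replicate 2 moved from above WT to below it. The order of the libraries in this count thus depended on the reads asked for. Shares over all genes at this limit are not given, so whether the shift is particular to the members is not known. This limit was the WT minimum over 1 input read, so it could hardly lower the WT count. Equal reads were also not equal enrichment: each IP read over 1 input read stood for a fold of 0.845 in WT, 1.74 in replicate 1 and 2.39 in replicate 2.

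Target clusters, which are stretches named by at least 1 miRNA in fused reads, were found in more members than enriched clusters were. In WT, 116 of 240 members (48.3%, 41.9 to 54.9) held a target cluster, against 28.5% of all protein-coding genes. *Mov10* Deletion replicate 1 had 125 (52.1%, 45.6 to 58.6), against 34.1%, and replicate 2 had 97 (40.4%, 34.2 to 46.9), against 24.1%. All 3 libraries had a target cluster in 75 members (31.2%, 25.4 to 37.5), against 17.1% of all genes. Target clusters have no input normalization, so that a gene with more RNA offers more reads, and the part of RNA level in these shares was not tested. In whole brain, fewer cells that express a gene and less RNA per cell cannot be told apart.

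**Figure D1:**
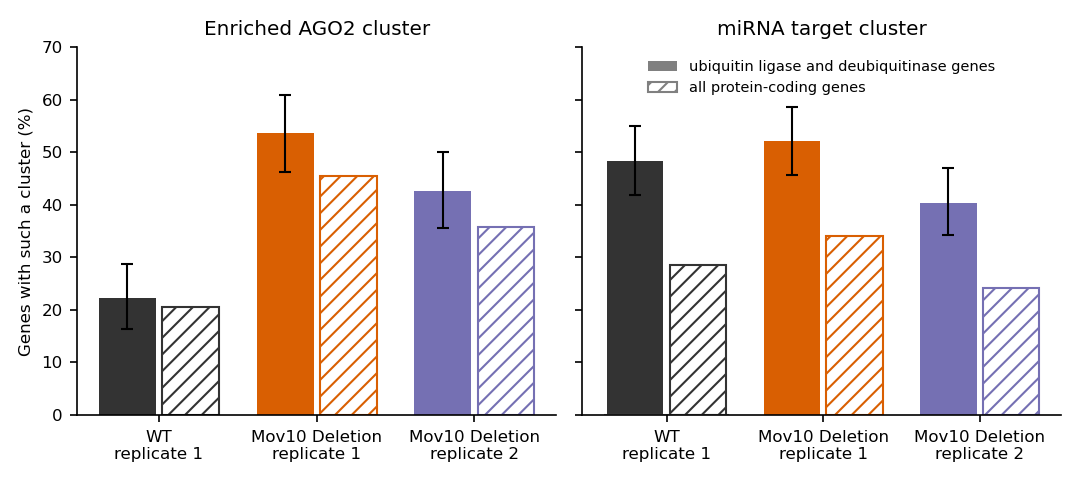
Percent of genes with at least 1 enriched AGO2 cluster (left) and at least 1 miRNA target cluster (right) in each library, for the ubiquitin ligase and deubiquitinase genes (filled bars; error bars are exact 95% intervals that cover counting error) and all protein-coding genes (hatched bars). For target clusters the filled bars stand at 48.3%, 52.1% and 40.4% and the hatched bars at 28.5%, 34.1% and 24.1%.

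The members were longer than genes in general, with a median gene body of 26931 nt against 17536 nt, and they held a median of 15 AGO2 clusters per gene in WT against 9. Genes with a cluster in all 3 libraries were therefore split into 3 equal groups by length. In the shortest group, up to 16998 nt, target clusters were found in WT in 42.6% of 47 members and 35.3% of all genes. In *Mov10* Deletion replicate 1 the shares were 38.3% and 41.4%, and in replicate 2 they were 27.7% and 26.3%. In the middle group, up to 51358 nt, 65.1% of 63 members and 46.5% of all genes held one in WT, 71.4% and 55.6% in replicate 1, and 58.7% and 36.8% in replicate 2. In the longest group the WT shares were 76.1% of 71 members and 63.2% of all genes. For enriched clusters, the middle group had 23.8% of members against 18.1% of all genes in WT, 54.0% against 45.5% in replicate 1 and 44.4% against 33.8% in replicate 2. In the longest group the shares were 29.6% against 33.2% in WT, 71.8% against 70.3% in replicate 1 and 59.2% against 60.1% in replicate 2. In the shortest group, enriched clusters were found in 10.6% of members against 12.7% of all genes in WT. The shares there were 34.0% against 32.2% in replicate 1 and 23.4% against 22.5% in replicate 2. Within groups of like length, members thus lay higher than all genes for enriched clusters in the middle group only, and close to them in the others. For target clusters they lay higher in the middle and longest groups, but not in every library in the shortest. These differences were not tested.

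By class, enriched clusters in WT were found in 13 F-box, 11 *Usp*, 6 *Klhl*, 6 *Trim* and 5 HECT genes and in none of the 8 cullins. *Mov10* Deletion replicate 1 had 29 F-box, 23 *Usp*, 20 *Trim*, 18 *Klhl* and 9 HECT genes and 3 cullins, and replicate 2 had 25 F-box, 22 *Usp*, 14 *Klhl*, 13 *Trim* and 5 HECT genes and 2 cullins. Over all genes with a cluster, 20.5% had an enriched one in WT, 45.4% in replicate 1 and 35.7% in replicate 2. The 8 cullins and 11 HECT genes are few to set beside these shares. Cullins were however joined to miRNAs: 6 of the 8 held a target cluster in WT, 8 in replicate 1 and 4 in replicate 2. Over all genes the target shares were 28.5%, 34.1% and 24.1%. All 11 HECT genes held AGO2 clusters, and 9 of them held a target cluster in all 3 libraries, beside 17.1% of all genes. Several HECT genes are long, such as *Nedd4l* at 333347 nt and *Herc1* at 158364 nt. In the longest group of all genes, 63.2% held a target cluster in WT, 74.5% in replicate 1 and 58.7% in replicate 2. At the other end, 46 members, of which 19 were *Trim*, 18 F-box, 7 *Klhl* and 2 *Usp* genes, held no AGO2 cluster in any library (19.2%, beside 33.1% of all genes), and 87 held neither an enriched nor a target cluster (36.2%, beside 52.7%).

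An enriched cluster in all 3 libraries was found in 34 of the 181 members with a cluster in each (18.8%, 13.4 to 25.2), against 16.6% of all genes. These were 12 F-box, 8 *Usp*, 6 *Klhl*, 5 *Trim* and 3 HECT genes. The genes named below are those with the highest enrichment of each class, a set of well-known ligases, the genes with most target clusters and those enriched in 1 genotype only. The best cluster of a gene is its enriched cluster with the highest log2 of IP over input in that library, and it need not be the same stretch in each library. Over 1 input read, the fewest IP reads that pass are 16 in WT, 9 in replicate 1 and 8 in replicate 2. They give a log2 of 3.76, 3.97 and 4.25, so values near these can rest on few reads.

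Among F-box genes, *Fbxo10*, which codes for a substrate receptor known to act on the survival protein BCL-2, had the highest value of any member in WT. Its best cluster had a log2 of IP over input of 6.2 in WT and 4.61 and 5.95 in *Mov10* Deletion replicates 1 and 2. Inferred reads were 87 IP over 1 input read in WT, 56 over 4 in replicate 1 and 26 over 1 in replicate 2. In each library these clusters lay within 1000 nt of the end of the gene, in the stretch chr4:45034322-45035105 on the minus strand. *Fbxo42*, a further F-box gene, had 4.71, 4.38 and 5.78, and in WT and replicate 2 the best clusters overlapped, 19004 and 19096 nt before the gene end. *Fbxo33* had 4.97, 4.71 and 5.25, all within 1000 nt of the gene end. *Fbxw7*, the receptor for cyclin E, MYC and Notch, had 3.56, 4.97 and 4.58, and its clusters near the gene end overlapped in WT and replicate 1 while the best cluster of replicate 2 lay 147568 nt from the end. The end cluster of replicate 1 was also enriched in replicate 2, at 3.13.

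Of the *Klhl* genes, *Klhl42* had 5.0 in WT, 4.71 in replicate 1 and 4.25 in replicate 2, the last on 8 IP reads over 1 input read. *Klhl3*, the CUL3 adaptor that controls WNK kinases, had 4.46, 4.26 and 5.16, but its best cluster in replicate 2 lay on a miRNA hairpin, described further on. *Klhl22* had 4.0, 4.80 and 4.06, and in WT and replicate 2 the best cluster started within 1 nt of the same place. *Klhl29* had 3.93, 4.38 and 4.42, with a different stretch in each library.

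*Trim2*, a ligase known for acting on the neurofilament light chain in axons, had 5.23 in WT, 4.97 in replicate 1 and 5.63 in replicate 2. In WT and replicate 2 the best cluster was a short overlapping stretch of 10 and 15 nt, far inside the gene at 68636 and 68630 nt before its end, with a −log10 p of 38.6 and 38.2. With clusters under 20 nt left out, the values of *Trim2* were 4.75 in WT and 5.32 in replicate 2. *Trim3*, a related gene expressed in brain, had 4.37, 4.12 and 4.42, and *Trim24*, a transcriptional co-regulator, had 3.28, 4.50 and 4.58. *Trim9*, a ligase of the netrin axon guidance pathway, had no enriched cluster in WT, 4.50 in replicate 1 and 4.84 in replicate 2. *Trim32*, known in neural progenitors and muscle, was enriched in replicate 2 alone, at 4.25. This rested on 8 inferred IP reads over 1 input read, the fewest that pass there over 1 input read. *Trim71*, a stem cell gene that let-7 is known to repress, held 5 AGO2 clusters in each library, none enriched, and no target cluster.

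Of the HECT ligases, *Nedd4l*, which removes ion channels from the cell surface, had 4.71 in WT, 5.61 in replicate 1 and 5.06 in replicate 2. It held 8 enriched clusters in WT, 31 in replicate 1 and 27 in replicate 2, the most of any HECT gene. *Nedd4*, its close relative, had none in WT and best values of 4.12 and 4.16 in the *Mov10* Deletion libraries. These rested on 10 IP reads over 1 input read in replicate 1 and 15 over 2 in replicate 2. *Herc1* had 4.15, 4.50 and 4.58. *Huwe1* had 3.17 in WT, 4.38 in replicate 1 and 4.34 in replicate 2. *Ube3a*, the gene of Angelman syndrome, held 28 to 33 clusters in a library and none of them was enriched, and its highest log2 of IP over input at any p-value was 2.93 in WT, 2.38 in replicate 1 and 2.84 in replicate 2.

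Of the deubiquitinases, *Usp22*, which removes ubiquitin from histones as part of the SAGA complex, had 5.34 in WT, 4.30 in replicate 1 and 3.99 in replicate 2. *Usp29* had 4.76, 4.50 and 4.42, and *Usp46* had 4.46, 4.89 and 4.80. *Usp9x*, a deubiquitinase needed in neural progenitors, had 4.0 in WT and lower values in the *Mov10* Deletion libraries, 3.06 and 3.25. Without a requirement on p, those 2 values of *Usp9x* were 3.61 and 3.84. *Cul3* and *Cul4b*, scaffolds of the BTB and DDB1 ligases, had no enriched cluster in any library.

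**Figure D2:**
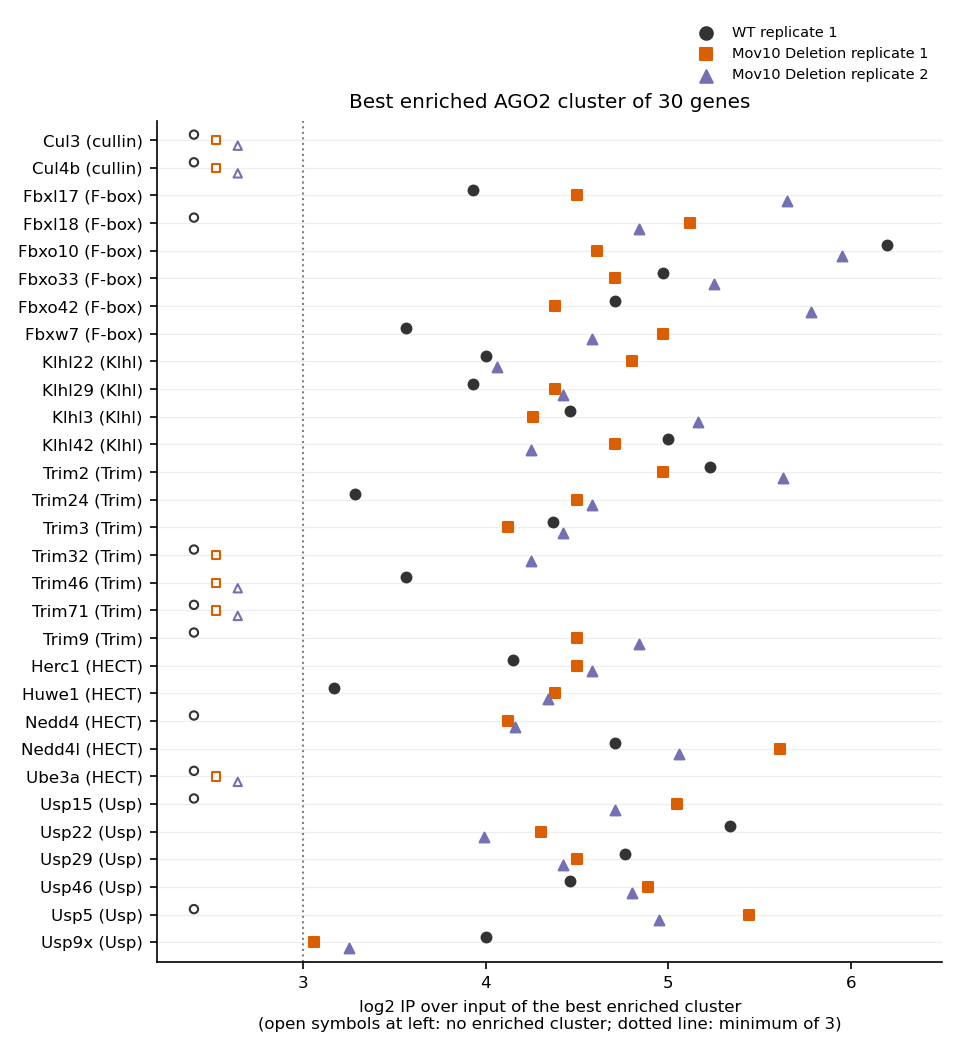
Log2 of IP over input of the best enriched AGO2 cluster (horizontal axis) of 30 genes (vertical axis, class in brackets) in WT replicate 1 (circles) and *Mov10* Deletion replicates 1 (squares) and 2 (triangles); open symbols at the left stand for a library with no enriched cluster. *Fbxo10* reaches 6.2 in WT, and *Cul3*, *Cul4b*, *Trim71* and *Ube3a* have open symbols only.

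Both *Mov10* Deletion libraries but not WT had an enriched cluster in 32 of 181 members (17.7%, 12.4 to 24.0), against 13.0% of all genes. WT alone had one in 1 member (0.552%), against 1.14% of all genes. With at least 16 inferred IP reads, the first count was 2 and the second 6, and with a −log10 p of at least 5 they were 11 and 2. The first count thus did not hold under stricter limits, for which shares over all genes are not given. The order of the counts turned at 16 reads, a limit that could lower the *Mov10* Deletion calls but hardly the WT calls. The highest members of the first set at the main limits were *Usp5*, *Fbxl18* and *Usp15*. In replicate 2 their best clusters rested on 13, 12 and 11 inferred IP reads over 1 input read, each under 16. For *Usp5* this was the only enriched cluster in replicate 2, so it was not called there with 16 reads. *Usp5*, which takes apart free ubiquitin chains, had 5.44 in replicate 1 and 4.95 in replicate 2, both at chr6:124815039-124815193 on the minus strand, 20 nt from the gene end. In WT its 10 clusters reached at most 3.22 and none passed both limits. *Fbxl18* had 5.12 and 4.84, on different stretches of the gene. *Usp15* had 5.05 and 4.71, and the first of these was a cluster of 4 nt, so that the value was 4.80 with clusters under 20 nt left out. The member enriched in WT alone was *Trim46*, a gene of the axon initial segment, with a log2 of 3.56 at 134 nt from the gene end.

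Because the *Mov10* Deletion libraries share their cluster limits, a gene enriched in both can be checked for the same stretch. Of the 7938 and 7941 clusters in members, 7922 had the same limits in both libraries. Of the 66 members enriched in both, 27 had a cluster enriched in both, and of the 32 that lacked one in WT this held for 7: *Fbxo34*, *Fbxw8*, *Klhl1*, *Klhl28*, *Trim35*, *Usp2* and *Usp5*. In the other 25, each library was enriched at its own stretch. These counts were not made over all genes, so whether they are particular to the members is not known. *Trim35* had neighbouring clusters that passed in both libraries, 338 and 411 nt from the gene end, and *Usp2* had 1 at 346 nt, with a log2 of 4.26 in replicate 1 and 4.84 in replicate 2.

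Some enriched clusters lay on miRNA genes inside these genes. RefSeq places 9 miRNA hairpins on the same strand within member gene bodies, and AGO2 clusters fell on 4 of them: Mirlet7f-2 and Mir98 in *Huwe1*, Mir3099 in *Usp29* and Mir874 in *Klhl3*. On Mirlet7f-2, chrX:151912346-151912428, the higher cluster had a log2 of 3.46 in WT and 4.38 and 4.34 in *Mov10* Deletion replicates 1 and 2, and the WT cluster did not pass on p, with a −log10 p of 2.56. These were the best clusters of *Huwe1* in both *Mov10* Deletion libraries. Together with their neighbours they covered all 22 nt of mature let-7f-5p in each library, and no base of let-7f-2-3p on the same hairpin. Whether these reads came from this hairpin or from another source of let-7f-5p was not tested. On Mir3099, chr7:6803587-6803670, the cluster had 2.34 in WT, 4.38 in replicate 1 and 4.25 in replicate 2, over all 22 nt of miR-3099-3p, printed here because the same gene and miRNA appear on both sides of the assay.
miR-3099-3p: uAGGCUAGagagagguugggga

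On Mir874, chr13:58023125-58023200 on the minus strand, values were 2.76, 3.38 and 5.16. The clusters on Mir98 stayed at 2.76, 2.80 and 2.84 with a −log10 p of at most 1.35. On Mirlet7f-2, Mir3099 and Mir874 the *Mov10* Deletion libraries passed and WT did not, on 8 to 17 inferred IP reads, a range that lies mostly under the 16 reads of the smallest enriched WT clusters. The clusters on hairpins were 4 of 395 enriched clusters in replicate 1 and 4 of 226 in replicate 2, and without them 102 and 81 members were still enriched. The miRNAs of these hairpins were also joined to mRNAs: miR-3099-3p was named in 21 assignments over the whole genome in WT, 79 in replicate 1 and 35 in replicate 2. In replicate 1 it was assigned to 3 members, *Fbxl5*, *Klhl29* and its host *Usp29*.

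Each pairing of a target cluster with a miRNA is an assignment, and members held 344 in WT and 443 and 223 in *Mov10* Deletion replicates 1 and 2, on 299, 411 and 215 distinct clusters. In all, 130 miRNAs were named. miR-124-3p took 153 in WT (44.5%, 39.1 to 49.9), 169 in replicate 1 (38.1%, 33.6 to 42.9) and 75 in replicate 2 (33.6%, 27.5 to 40.2), beside 43.5%, 35.6% and 37.8% over all genes. It was found on 81 members in WT, 86 in replicate 1 and 50 in replicate 2. miR-9-5p took 35 (10.2%, 7.19 to 13.9), 42 (9.48%, 6.92 to 12.6) and 18 (8.07%, 4.85 to 12.5), beside 9.28%, 6.70% and 6.89% over all genes. The share over all genes lay inside the members' interval for both miRNAs in each library, except for miR-9-5p in replicate 1, where it lay below.

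The let-7 seed was named on 23 of 299 target clusters in WT (7.69%), 34 of 411 in replicate 1 (8.27%) and 15 of 215 in replicate 2 (6.98%), beside 7.31%, 8.80% and 7.78% over all genes. miR-125b-5p had 15, 25 and 8 assignments (4.36%, 5.64% and 3.59%, beside 6.22%, 5.58% and 5.52% over all genes). miR-466i-5p had 12, 18 and 16 (3.49%, 4.06% and 7.17%, beside 4.11%, 5.5% and 5.98%). miR-26a-5p had 7, 11 and 6 (2.03%, 2.48% and 2.69%, beside 1.4%, 1.31% and 1.29%). miR-181a-5p had 7, 10 and 5 (2.03%, 2.26% and 2.24%, beside 1.62%, 1.75% and 1.61%). For these miRNAs each share over all genes lay inside the members' interval. The AGCAGCA seed of miR-16-5p and miR-15a-5p, singled out after its values were seen, was more frequent in 1 library. It was named on 8 clusters in WT (2.68%) and 6 in replicate 1 (1.46%), beside 1.78% and 2.05% over all genes, but on 14 of 215 in replicate 2 (6.51%, 3.61 to 10.7), beside 1.89%. Those 14 clusters lay in 13 genes, among them *Huwe1*, *Nedd4*, *Herc2*, *Trim9* and *Usp15*. The other *Mov10* Deletion library did not show it, and *Klhl9* was the only gene of the 13 where this seed was also named in WT.

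**Figure D3:**
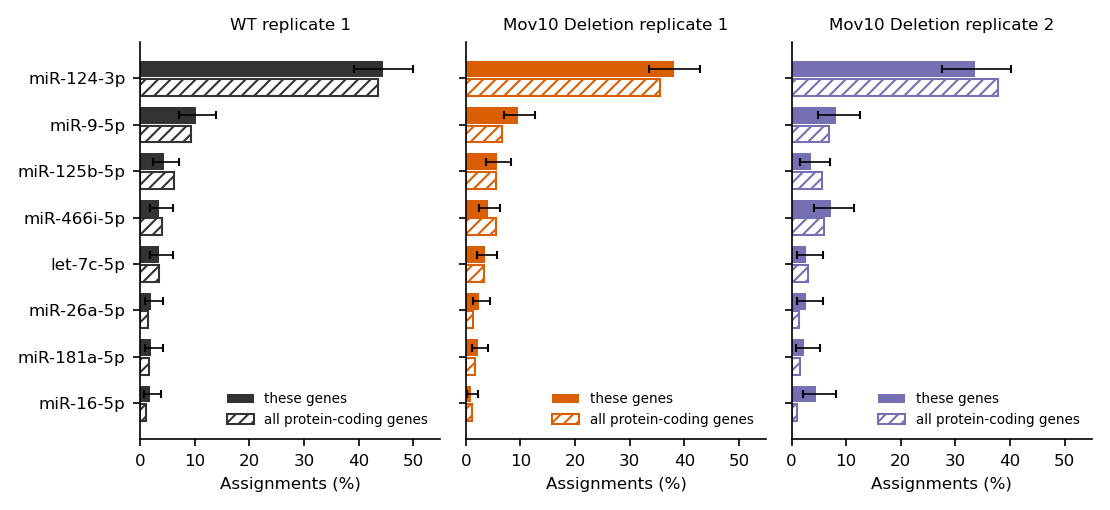
Percent of miRNA assignments (horizontal axis) taken by the 8 miRNAs named most often in the ubiquitin ligase and deubiquitinase genes, in each library (panels), for these genes (filled bars; error bars are exact 95% intervals that cover counting error) and all protein-coding genes (hatched bars). miR-124-3p takes 44.5%, 38.1% and 33.6% in these genes, and miR-16-5p takes 4.48% in *Mov10* Deletion replicate 2 against 1.06% over all genes.

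*Nedd4l* held the most target clusters, with 11 in WT and 21 and 11 in *Mov10* Deletion replicates 1 and 2. miR-124-3p had 8, 10 and 6 assignments there, and 16 miRNAs were named over the 3 libraries. *Klhl29* held 10, 15 and 6 target clusters, *Usp29* 9, 14 and 7, and *Herc1* 9, 15 and 5. *Fbxl17*, a receptor that clears faulty BTB dimers, held 6, 14 and 2. These genes are also among the longest members: 333347 nt for *Nedd4l*, 298218 nt for *Klhl29*, 236662 nt for *Usp29*, 158364 nt for *Herc1* and 458236 nt for *Fbxl17*. In each of them replicate 1 held the most clusters, and replicate 1 also held the most target clusters over all members.

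**Figure D4:**
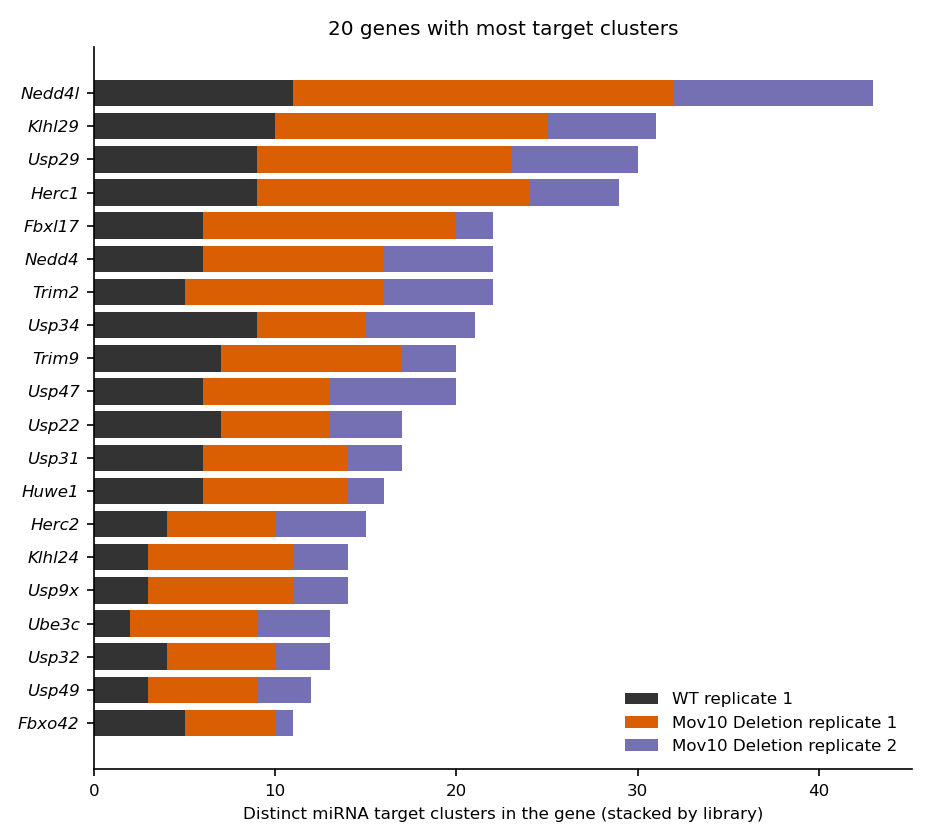
Number of distinct miRNA target clusters (horizontal axis) in the 20 genes with most of them, stacked by library. *Nedd4l* reaches 43 over the 3 libraries, *Klhl29* 31, *Usp29* 30 and *Herc1* 29.

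Few of these assignments recurred between libraries. Of the 344 assignments in WT, 140 (40.7%, 35.5 to 46.1) were overlapped in either *Mov10* Deletion library by an assignment of the same miRNA, beside 38.4% over all genes. By library this was 34.9% in replicate 1 and 19.2% in replicate 2. Of the 223 assignments of replicate 2, 50 (22.4%, 17.1 to 28.5) were found in replicate 1, beside 26.4% over all genes, and 65 (29.1%, 23.3 to 35.6) in WT, beside 30.2%. These overlaps are of unlike kinds: all 63 target clusters of replicate 2 that overlapped one of replicate 1 had the same limits there, whereas none of the 121 WT clusters that did so had. Genes recurred more than single assignments: of the 97 members with a target cluster in replicate 2, 84 (86.6%) had one in replicate 1, beside 82.8% over all genes, and 84 had one in WT, beside 77.3%. For miR-124-3p, 45.1% of the WT assignments were found in replicate 1 (37.1 to 53.3), beside 41.6% over all genes. For miR-9-5p it was 18 of 35 (51.4%, 34.0 to 68.6), beside 35.5%, a value inside that wide interval. In replicate 2, 13 of the 35 were found (37.1%, 21.5 to 55.1), beside 20.6% over all genes, just below the interval. Of the 18 miR-9-5p assignments of replicate 2, 13 were found in WT (72.2%, 46.5 to 90.3), beside 45.7%. These shares rest on few assignments.

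All 3 libraries shared 46 of the 344 WT assignments (13.4%, 9.96 to 17.4), beside 13.7% over all genes, so that sharing was at the general level. They lay on 43 WT clusters in 32 genes and are described one by one for what they hold. Of the 46, 25 were of miR-124-3p, 11 of miR-9-5p, 2 each of miR-125b-5p and miR-466i-5p, and 1 each of miR-17-5p, miR-26a-5p, miR-30c-5p, miR-30e-5p, miR-181a-5p and let-7c-5p. The genes were 9 F-box, 9 *Usp*, 6 *Trim*, 5 HECT and 3 *Klhl* genes and no cullin. Of the 43 clusters, 11 lay in the last 1000 nt of the gene and 22 lay far inside it, 5391 nt or more before its end. An enriched AGO2 cluster overlapped 9 of them in all 3 libraries and 24 of them in none.

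The highest scores of all members were on *Usp22*. The score is a number the target lists give each assignment, at least 3 in these files, and what it counts is not given in the sources used here. The stretch chr11:61157171-61157261 on the minus strand, 5390 nt before the gene end, was assigned to miR-124-3p with a score of 114 and 122 on 2 touching clusters in WT and 125 and 110 in *Mov10* Deletion replicates 1 and 2. These scores were at or above the 99.7th percentile of their libraries. An enriched AGO2 cluster lay on it in every library, with a log2 of IP over input of 5.34 in WT (48 IP over 1 input read), 4.0 in replicate 1 (55 over 6) and 3.99 in replicate 2 (40 over 6). These reads are not scaled for library depth, so they are not compared between the libraries. The source of the lower log2 values in the *Mov10* Deletion libraries was not tested.

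A further stretch of *Usp22*, chr11:61166666-61166749, was assigned to miR-9-5p with scores of 119 in WT, 71.8 in replicate 1 and 56.6 in replicate 2, and so was chr11:61163733-61163798, with 19.7, 26.8 and 4.82. miR-124-3p was also named at chr11:61168307-61168361 with 18.3, 13.9 and 12.7. In all, *Usp22* held 5 of the 46 shared assignments, and none of its stretches lay in the last 1000 nt. Its paralog *Usp27x*, a gene without introns on the X chromosome, was assigned to miR-9-5p in every library too, with scores of 5.54, 4.75 and 3.0. Whether reads of the 2 paralogs were split between them was not tested.

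*Nedd4* combined 4 shared assignments near its end. At 2122 nt before the gene end in WT, chr9:72747656-72747730 was assigned to miR-124-3p with scores of 19.2 in WT, 12.4 in replicate 1 and 4.0 in replicate 2. Next to it, chr9:72748033-72748188 was assigned to miR-30c-5p with 16.9, 19.1 and 9.20, to miR-30e-5p with 5.88, 10.5 and 6.08, and to miR-9-5p with 11.6, 11.6 and 5.09. In WT these lay on 1 cluster, chr9:72748039-72748184. In both *Mov10* Deletion libraries the miR-30 miRNAs lay at chr9:72748033-72748114 and miR-9-5p on the adjoining chr9:72748115-72748188. The miR-30 miRNAs share the seed GUAAACA printed above and were named on 1 stretch. AGO2 clusters on chr9:72748033-72748188 had a log2 of only 1.32 to 2.18, below the minimum, with a −log10 p of up to 28.0. *Nedd4* thus had recurrent miRNA assignments where AGO2 was above input by the deposited p-value but under 3 on the log2 scale.

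*Trim2* carried miR-9-5p near its end in all libraries. At chr3:84160863-84161002 on the minus strand the scores were 26.7 in WT, 30.4 in replicate 1 and 9.90 in replicate 2, on an enriched AGO2 cluster with a log2 of 3.68 (121 IP over 8 input reads), 4.38 (191 over 16) and 3.35 (60 over 14). In WT and replicate 1, let-7c-5p, miR-124-3p and miR-181a-5p were assigned to the same stretch, and in replicate 2 miR-9-5p alone was. A further miR-9-5p stretch 3624 nt before the gene end had scores of 13.5, 10.3 and 10.8.

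Among F-box genes, *Fbxl19*, which binds unmethylated CpG islands, was the gene with miR-26a-5p. At chr7:127768671-127768793 the scores were 25.4 in WT, 18.0 in replicate 1 and 15.4 in replicate 2, and AGO2 was enriched there with a log2 of 5.0, 5.29 and 3.16. At 175 nt from its end the same gene was assigned to miR-125b-5p, with 6.21, 4.94 and 9.89. *Fbxo10* was assigned to miR-124-3p at chr4:45034949-45035077 with 35.4, 17.9 and 11.9, on clusters with a log2 of 6.2, 4.61 and 3.13. At 68 nt from its end it was assigned to miR-17-5p with 4.77, 9.0 and 3.0, on clusters with 5.34, 4.5 and 5.95. *Fbxo38* was assigned to miR-124-3p 17099 nt before its end in WT with 39.5, 13.4 and 19.5, on clusters with a log2 of 5.86, 3.97 and 5.42. At the miR-26a-5p stretch of *Fbxl19* and at these stretches of *Fbxo10* and *Fbxo38*, a target cluster thus overlapped an enriched AGO2 cluster in every library.

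Of the HECT genes, *Herc1* carried miR-124-3p 150204 nt before its end with scores of 38.7, 6.69 and 22, and AGO2 was enriched there at 4.15 in WT and 4.50 in replicate 1 but had 2.25 in replicate 2. *Herc2*, a ligase of the DNA damage response, was assigned to miR-9-5p with 9.83, 3.75 and 23.2, and *Ube3c* to miR-124-3p with 7.56, 5.89 and 9.84. The highest score fell in WT for *Herc1* and in replicate 2 for *Herc2* and *Ube3c*. *Ube3a* had no assignment in all 3 libraries at 1 place by the same miRNA. It was assigned to miR-153-3p in WT and replicate 1 at 34233 and 34255 nt before its end, with scores of 13.0 and 5.42, and to miR-124-3p in the last 1000 nt in WT and replicate 2.

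*Klhl24* was assigned to miR-124-3p and miR-9-5p on the same stretch 813 nt before its end, with scores of 27.6, 14.8 and 3.0 for the first and 9.74, 11.8 and 4.0 for the second, and AGO2 was enriched there in every library at 5.25, 3.18 and 3.84. *Trim24* was assigned to miR-124-3p with 20.7, 10.2 and 7.0 on clusters at 3.28, 3.21 and 4.25. *Trim28*, a co-repressor of retroelements, and *Klhl9* were assigned to miR-9-5p, and *Trim37* to miR-181a-5p with 4.89, 9.81 and 3.01. A let-7 miRNA was assigned to *Usp29*, *Usp42* and *Usp47* in every library, but *Usp47* alone had it at 1 place by the same miRNA, let-7c-5p at 9.0, 4.67 and 6.0, and in WT let-7b-5p, let-7f-5p and let-7g-5p were named on the same cluster.

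**Figure D5:**
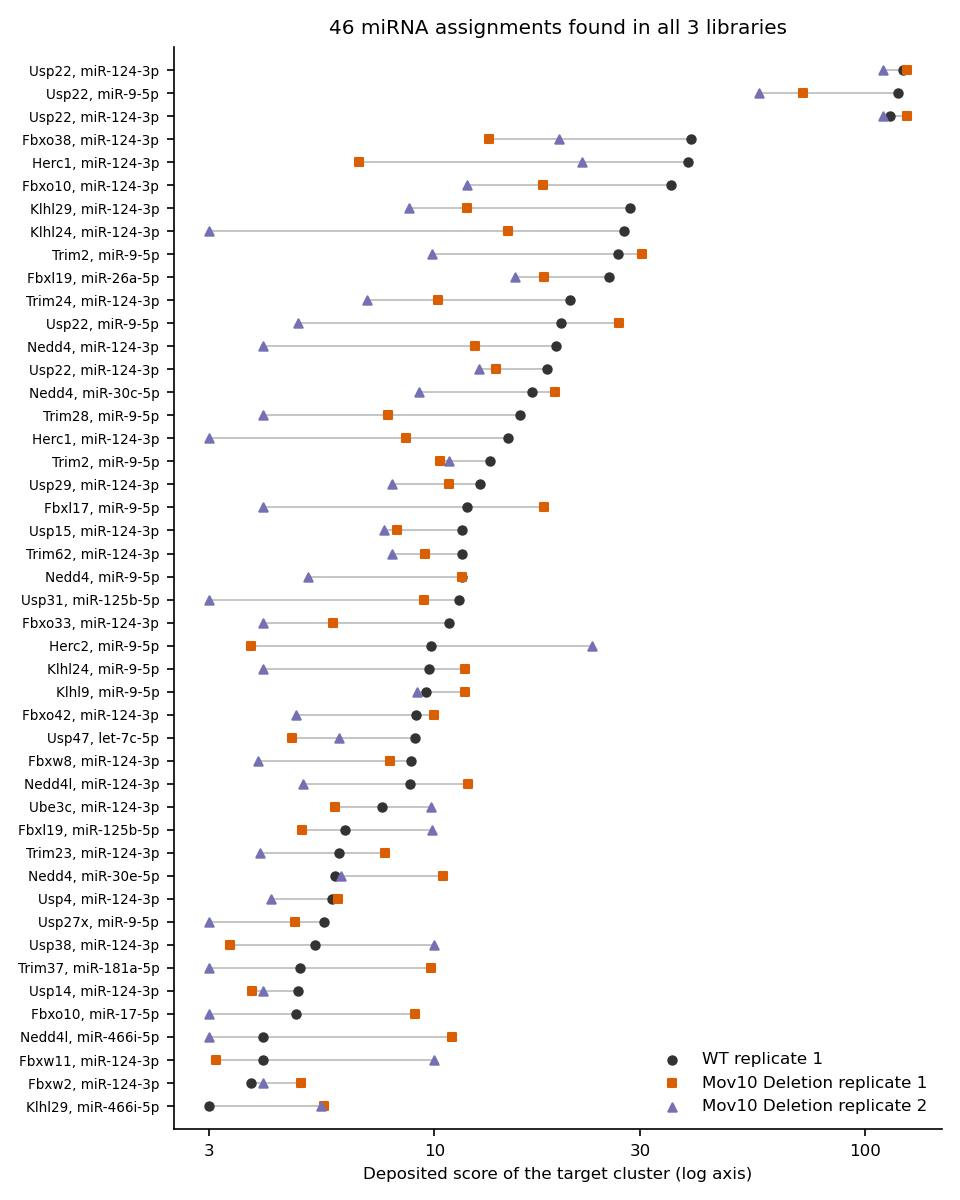
Deposited score (horizontal log axis) of the 46 miRNA assignments in these genes that were found in all 3 libraries (vertical axis, gene and miRNA), in WT replicate 1 (circles) and *Mov10* Deletion replicates 1 (squares) and 2 (triangles), joined by a line. The *Usp22* assignments of miR-124-3p at 110 to 125 and of miR-9-5p at 56.6 to 119 lie apart from the others, which reach 39.5.

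Target clusters lay at the end of the gene more often than AGO2 clusters in general, though most lay elsewhere. In WT, 52 of 299 member clusters (17.4%, 13.3 to 22.2) lay in the last 1000 nt, beside 17.8% over all genes. In *Mov10* Deletion replicate 1 it was 40 of 411 (9.73%, 7.04 to 13.0), beside 13.2%, just above the members' interval, and in replicate 2 it was 26 of 215 (12.1%, 8.05 to 17.2), beside 14.4%. The share was lower in both *Mov10* Deletion libraries than in WT, in members and over all genes alike, and with 1 WT library this cannot be told apart from a difference between libraries. Of all AGO2 clusters in members, enriched or not, 4.94% lay in the last 1000 nt in WT, 4.08% in replicate 1 and 4.09% in replicate 2. Over all genes these shares were 4.44%, 3.66% and 3.66%. Of the enriched AGO2 clusters in members it was 23.2%, 12.9% and 12.8%, beside 19.3%, 10.8% and 10.6% over all genes. An enriched AGO2 cluster overlapped 14.0% of the WT target clusters, 11.7% in replicate 1 and 7.44% in replicate 2, beside 15.1%, 11.7% and 11.7% over all genes, so that most target clusters of these genes lay outside enriched clusters.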

How the data were processed

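Per the labels and the study's methods, UMI-tools 1.1.1 handled molecular identifiers and duplicates, cutadapt 3.2 trimmed adapters, and STAR 2.7.7a mapped reads to mm10 after reads from repeats were set aside. miRNAs were searched with Bowtie 1.2.3 in reads mapped nowhere, and the rest of such a read was mapped. CLIPper called the clusters. The deposited AGO2 lists hold a −log10 p-value (capped at 400) and a log2 of IP over input for each cluster, computed by the authors. The deposited target lists hold a score of undescribed unit, at least 3, without input normalization. Read totals are not given in the sources used here, so depth is unknown; reads of enriched clusters were inferred from their log2 and −log10 p together, and found for 97.0%, 99.4% and 99.1% of them. The inference was tested on simulated data.

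Clusters wholly inside a RefSeq gene body (GRCm38.p6) on its strand were assigned to it; strand came from the RefSeq promoter table for 188 members and by symbol from GENCODE for 52. The 240 members had a strand, as had 21468 of 21900 protein-coding genes. Exon annotation on mm10 was not used here, so that positions are distances to the gene end. Intervals are exact Clopper-Pearson at 95% (SciPy 1.17.1, pandas 2.3.3, Python 3.11.15). No test between genotypes was run. The named genes were 12 preset ligases, the 3 genes per class with the highest lowest-of-3 log2 among those enriched in all libraries, the 5 with most target clusters, and the top 3 enriched in 1 genotype only (1 in WT). The genes with assignments shared by all libraries were described after their values were seen. Members and lists were chosen with earlier results of these data known.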

Additional observations from a re-analysis of the deposited data

How the results depend on the processing

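No paired analysis was possible because the results come from no test and the input libraries enter only through the deposited IP over input values. With a −log10 p of at least 5, members with an enriched cluster were 63 in *Mov10* Deletion replicate 1 and 38 in replicate 2, with 11 in both and not in WT and 2 in WT alone. With a log2 of at least 2, WT alone had 2. With at least 16 inferred IP reads, a limit chosen after seeing the data, the counts were 61, 26, 2 and 6 in that order. Leaving out 1 *Mov10* Deletion library gave 47 to 62 members enriched in *Mov10* Deletion and not in WT, 1 to 7 in WT alone, and an overlap of WT assignments of 19.2% to 34.9%. With a score of at least 5, members with a target cluster were 71 in WT, 77 in replicate 1 and 46 in replicate 2. The miR-124-3p share was then 56.1% in WT and 45.3% in replicate 1, the share in the last 1000 nt was 22.4% in WT and 20.3% in replicate 2, and the overlap was 49.6%. With clusters of a single miRNA, miR-124-3p took 53.0% in WT. With the last 2000 nt in place of 1000, the shares were 25.1%, 18.0% and 21.9%. The other 40 values computed stayed within 1.5 times the main count or within its interval. The causes of these changes were not tested beyond the fewer clusters each stricter limit leaves. These settings are given for members only, so whether the changes are particular to the members is not known. WT has 1 library, so no value here separates genotype from library.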

Other observations

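The other genes of the ubiquitin and NEDD8 pathway, a list of 65 genes for activating and conjugating enzymes, cullin partners and the COP9 signalosome, were counted in the same way. An enriched AGO2 cluster was found in 10 of 60 with a cluster in WT (16.7%, beside 20.5% of all genes), 38 of 63 in *Mov10* Deletion replicate 1 (60.3%, beside 45.4%) and 21 of 63 in replicate 2 (33.3%, beside 35.7%), and 5 of 60 had one in all libraries (8.33%, beside 16.6%). Both *Mov10* Deletion libraries but not WT were enriched in 11 of 60 (18.3%, beside 13.0%), and WT alone in 1 (1.67%, beside 1.14%). Target clusters were found in 40 of the 65 genes in WT (61.5%, beside 28.5%), 44 in replicate 1 (67.7%, beside 34.1%) and 23 in replicate 2 (35.4%, beside 24.1%), and in 20 in all 3 libraries (30.8%, beside 17.1%).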
